A study of Mus musculus with 5 samples.

Results

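A set of 10 genes that give red-cell forms of glycolytic enzymes, or the forms of wider use beside them, was followed in tumours of mice kept warm or cold. The set held 4 red-cell isozymes, *Pklr*, *Pfkm*, *Hk1* and *Bpgm*, and 6 others, *Pkm*, *Pfkl*, *Pfkp*, *Hk2*, *Hk3* and *Pgam1*. All 10 of 10 were found by gene symbol among 54446 entries of the count table, and all 10 were among the 16133 genes that passed a filter on low counts. The set was chosen by the difference between the temperature groups that earlier work on these counts had shown. The 10 genes are therefore described below by their values. No p-value or verdict on the temperature difference is given for any of them.

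Tumour tissue came from C57BL/6 mice inoculated with MC38, a mouse colon adenocarcinoma cell line, and held for 2 weeks at 30 °C, which is thermoneutral for mice, or at 4 °C. RNA of 3 samples at 30 °C and 2 at 4 °C was sequenced as bulk tissue, without sorting of cells, to compare gene expression in warm and cold tumours. Both groups share the strain, the cell line and the length of exposure, and neither the age nor the sex of these mice was given in the labels. The labels do not say whether each sample came from its own mouse, so differences are read here against the spread between samples only, and all of the tumours trace to 1 cell line.

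Mature red cells have no mitochondria and live on glycolysis. Hexokinase starts the pathway by phosphorylating glucose, phosphofructokinase commits the sugar to it, and phosphoglycerate mutase and pyruvate kinase act in its later steps. Red cells use the R form of pyruvate kinase from *Pklr* and a hexokinase form from *Hk1*, and *Bpgm* makes the 2,3-bisphosphoglycerate that lowers the oxygen affinity of haemoglobin. *Pklr* also gives the L form of liver, *Pfkm* is the subunit of muscle, *Hk1* is made in many tissues, and human red cells mix the M and L subunits of phosphofructokinase. The name red-cell isozyme therefore fits *Pklr* and *Bpgm* more strictly than *Pfkm* and *Hk1*.

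*Pklr* (chromosome 3, 89136142 to 89146784, plus strand, GRCm38) has 2 promoters in tandem, an upstream one used in red cells and a downstream one used in liver. RefSeq on GRCm38.p6 places starts 481 bases apart on the plus strand. The bases before each start are shown because the choice of start separates the red-cell from the liver transcript, and capitals mark the motifs searched for.
Pklr, before the upstream start, chr3:89135992-89136141, plus strand: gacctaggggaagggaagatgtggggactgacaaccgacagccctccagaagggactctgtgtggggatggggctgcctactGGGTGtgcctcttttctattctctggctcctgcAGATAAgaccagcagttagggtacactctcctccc
Pklr, before the downstream start, chr3:89136422-89136571, plus strand: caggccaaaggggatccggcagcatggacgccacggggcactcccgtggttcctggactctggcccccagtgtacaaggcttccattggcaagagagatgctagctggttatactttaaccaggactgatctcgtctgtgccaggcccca
The motifs were a GATA box, AGATAA or TGATAA, and a CACCC box, CACCC, on both strands over the 250 bases before a start. The upstream window held 1 GATA box beginning 35 bases before the start and 1 CACCC box, read as GGGTG on the plus strand, beginning 68 bases before it. The downstream window held neither. The last 51 bases before the downstream start lie in exons of longer *Pklr* transcripts and are not printed. Of all 32851 RefSeq windows of this length, 16.6% held a GATA box and 52% a CACCC box, so the pair of motifs in 1 window is given as a description. Windows that held both were not counted, and whether the motifs are bound was not tested. RefSeq gave 16 windows for the 10 genes, of which 5 held a GATA box (1 of *Pklr*, 3 of *Pfkm* and 1 of *Pkm*) and 9 a CACCC box. Counts per gene do not separate the transcripts of either *Pklr* start.

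Libraries held 16191708 to 20320525 counts on named genes. Levels are given as CPM, counts scaled to a library of 1000000, after TMM, a method that sets libraries equal over most genes. At these depths, counts of the 10 genes ran from 321 to 16255 per library and the 95% Wilson interval was 1.54% to 11.0% of the count on either side, which covers counting error only. 30 °C replicate 2 stood apart, since 20.6% of its counts came from 12 genes of pancreatic acinar cells. Its scaling factor was 0.738 against 1.03 to 1.13 in the other libraries. 4 °C replicate 2 also held acinar transcripts, at 0.197% of its counts and 1908 CPM in sum. In the remaining libraries these genes made up 0.0033% of counts or less, with sums of 1.64 to 30.7 CPM. MC38 derives from colon epithelium. The 9 epithelial markers summed to 57.3, 172 and 19.1 CPM at 30 °C and to 17.8 and 90.1 CPM at 4 °C. The highest sums were in 30 °C replicate 2 and 4 °C replicate 2, the libraries with most acinar transcripts. What part of these markers came from pancreatic cells was not tested. The most abundant marker, *Krt8*, was at 33.7, 53.8 and 4.10 CPM at 30 °C and at 2.93 and 57.9 CPM at 4 °C. In the same order, *Krt18* was at 7.34, 51.3, 1.75, 0.796 and 17.9 CPM. *Epcam* was at 9.37, 15.5, 7.95, 9.95 and 7.67 CPM. Markers of blood-forming and lymphoid cells were high. The 11 erythroblast genes analysed summed to 3142 to 6185 CPM and 11 B-cell genes to 5670 to 11750 CPM. The samples are called tumours as they are labelled. These marker levels leave unsettled how much of the RNA came from tumour cells or from another tissue, which was not tested and applies to every level below. In bulk tissue, fewer cells of a type and less RNA per cell cannot be told apart.

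No gene of the 16133 passed an adjusted p of 0.05 by the quasi-likelihood test of edgeR, 0% of those tested, and the smallest adjusted p was 0.689. DESeq2 called 118 genes. Without adjustment, 673 genes (4.17%) were lower and 417 (2.58%) higher at 4 °C with p under 0.05. DESeq2 called 92 genes lower, 0.787% of the 11697 to which it gave an adjusted p. The groups did not overlap in 3752 genes, 23.3% of all tested. They did not overlap in 4 of the 10 members, *Pklr*, *Pfkm*, *Hk1* and *Hk2*. The temperature contrast chose the set, so nothing is read from this count. The median log2 fold change, 4 °C over 30 °C, was -0.55 over the 4 red-cell isozymes and -0.03 over the 6 others, beside 0.01 over all genes tested. Leaving out each library in turn gave -0.64 to -0.47 for the red-cell isozymes and -0.21 to 0.17 for the others. Without 30 °C replicate 2 the medians were -0.57 and -0.15. The others were above 0 without 30 °C replicate 1, at 0.17, and without 4 °C replicate 1, at 0.07. Leaving out 30 °C replicates 1, 2 and 3 in turn left 6, 5 and 6 members without overlap, beside 38.9%, 29.2% and 38.7% of all genes. Genes without overlap among all 5 libraries cannot gain it when a library is dropped.

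**Figure D1:**
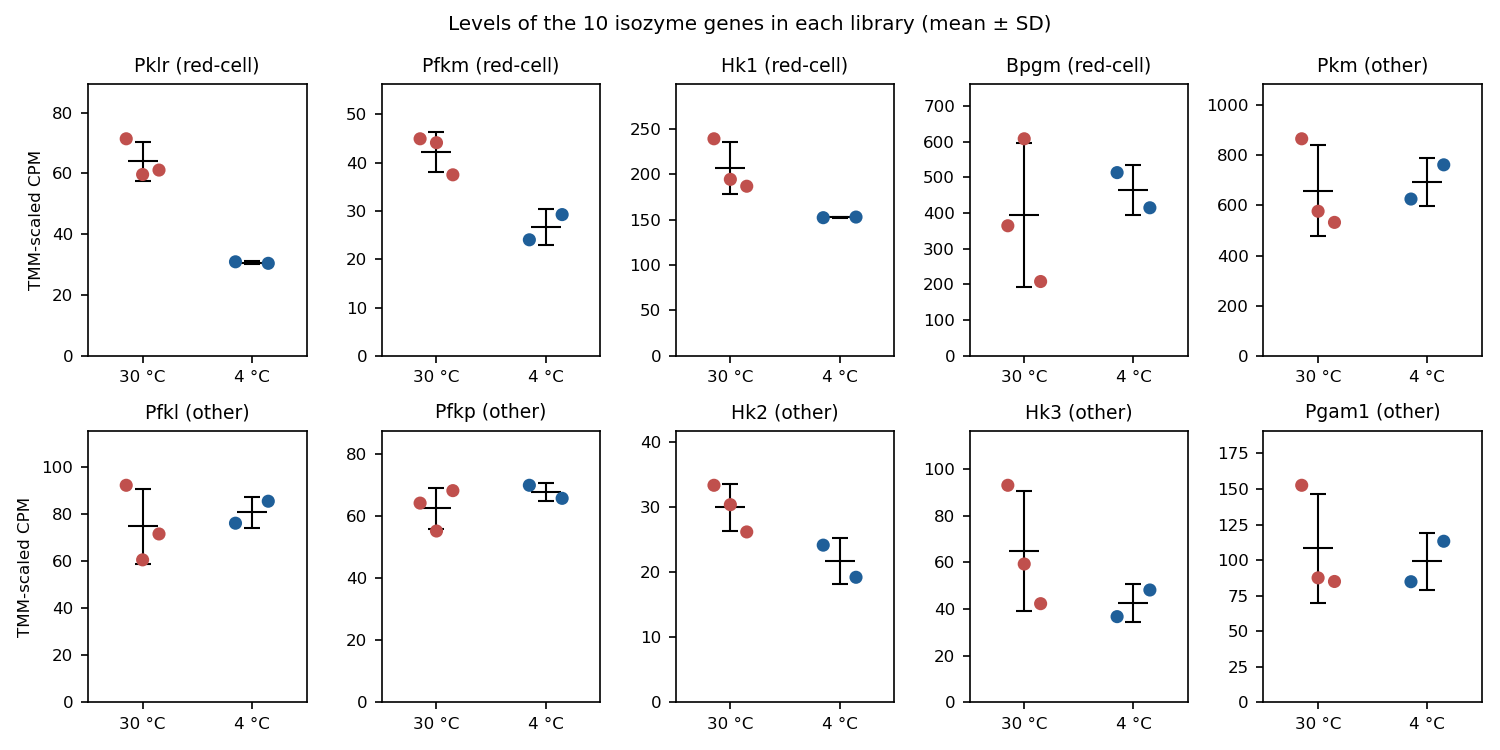
Each panel plots the level of 1 gene in TMM-scaled CPM on a linear axis from 0, with a point for each of the 3 libraries at 30 °C and the 2 at 4 °C and the mean ± SD. *Pklr* stands at 59.6 to 71.4 CPM at 30 °C and at 30.4 and 30.9 CPM at 4 °C, whereas *Bpgm* at 30 °C spans 208 to 608 CPM around both libraries at 4 °C.

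*Pklr* was at 71.4, 59.6 and 61.1 CPM in 30 °C replicates 1 to 3 and at 30.9 and 30.4 CPM in 4 °C replicates 1 and 2. Every library at 4 °C lay below every library at 30 °C, with a gap wider than the spread within either group. The means were 64.0 ± 6.40 CPM (SD, n = 3) in the warm and 30.7 ± 0.353 CPM (SD, n = 2) in the cold libraries, a log2 fold change of -1.06 (SE 0.17). Leaving out each library in turn gave -1.12 to -0.98. The 11 liver genes listed summed to 7.51 to 43.6 CPM per library, 8 of the 8 that passed the filter had a lower fitted level at 4 °C, and *Alb*, the most abundant of them at 30 °C, was at 2.77, 11.8, 19.1, 2.98 and 6.11 CPM in the same order of libraries. The highest and lowest libraries for *Alb* were not the highest and lowest for *Pklr*, and the part of liver transcripts in the level of *Pklr* was not tested. *Pklr* shares 711 bases with *Hcn3* on the other strand, which had 12 to 33 counts against 508 to 1399 for *Pklr*.

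*Pkm*, the gene of the M1 and M2 pyruvate kinases of most other tissues and of tumours (chromosome 9, 59656368 to 59679375), was at 865, 576 and 532 CPM at 30 °C and at 625 and 761 CPM at 4 °C. Both values at 4 °C fell within the range at 30 °C. Its log2 fold change was 0.08 (SE 0.27). A pseudogene, Gm6560, that matches *Pkm* over 1593 bases at 98.4% identity carried 0.785% as many counts.

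Within a library, the share of *Pklr* in pyruvate kinase counts does not depend on scaling between libraries. Counts were divided by the length of all exons of each gene. The share was 11.3%, 13.8% and 15.1% at 30 °C and 7.11% and 5.82% at 4 °C. The groups did not overlap, with means of 13.4% ± 1.91 (SD, n = 3) and 6.46% ± 0.910 (SD, n = 2), a difference of -6.93 percentage points. The size of the share depends on the length used. With the longest transcript of each gene in place of all exons, the difference was -4.13 points, and with counts not divided by length -4.82 points. Both again left the groups without overlap.

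*Pfkm* (chromosome 15, 98092589 to 98132451) was at 44.9, 44.1 and 37.5 CPM at 30 °C and at 24.0 and 29.2 CPM at 4 °C. Both cold libraries lay below all 3 warm ones. The log2 fold change was -0.66 (SE 0.19). Leaving out each library in turn gave -0.83, without 4 °C replicate 2, to -0.53, without 4 °C replicate 1. *Pfkl*, the liver-type subunit (chromosome 10, 77986947 to 78010083), was at 92.1, 60.5 and 71.4 CPM against 76.0 and 85.3 CPM, with overlap. *Pfkp*, the platelet-type subunit (chromosome 13, 6579768 to 6648777), was at 64.2, 55.2 and 68.2 CPM against 69.9 and 65.7 CPM, also with overlap. Their log2 fold changes were 0.11 (SE 0.22) and 0.12 (SE 0.17). *Pfkp* shares 748 bases with *Pitrm1* on the other strand, which had 1135 to 1961 counts, and how the counting used strand is not given in the sources used here, so the level of *Pfkp*, and the shares below that count it, are uncertain. *Pfkm* lies across *Senp1* on the other strand, which had 737 to 1728 counts, but their exons share only 18 bases.

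By counts per exon base, the share of *Pfkm* among the 3 phosphofructokinase genes was 42.0%, 50.1% and 41.5% at 30 °C and 30.2% and 33.1% at 4 °C. The groups did not overlap and differed by -12.9 percentage points. The share of *Pfkl* was 39.0% ± 4.40 (SD, n = 3) in warm and 48.1% ± 0.351 (SD, n = 2) in cold libraries. *Pfkl* had overlapped between groups as a level and did not overlap as a share, except with counts not divided by length, where it did. *Pfkp* overlapped as a share too, at 16.5% ± 2.08 against 20.2% ± 2.39. The order of the 3 genes depends on the length used. With the longest transcript, the mean share of *Pfkm* was 29.6% at 30 °C and 19.5% at 4 °C. With counts not divided by length it was 23.7% and 15.2%. Both left the groups of *Pfkm* without overlap. In both, *Pfkm* had the lowest mean share of the 3 genes at 30 °C, below *Pfkp* at 30.4% and 35.0%.

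*Hk1* (chromosome 10, 62268855 to 62379908) was at 239, 194 and 187 CPM at 30 °C and at 152 and 153 CPM at 4 °C. The cold libraries lay below the warm ones and within 1 CPM of each other. The log2 fold change was -0.44 (SE 0.18). *Hk2*, the insulin-regulated hexokinase of muscle and fat that many tumours also make (chromosome 6, 82725025 to 82774454), was at 33.4, 30.4 and 26.2 CPM against 24.2 and 19.2 CPM. It too was without overlap, with a log2 fold change of -0.47 (SE 0.21), close to that of *Hk1*. *Hk3*, a hexokinase of myeloid cells (chromosome 13, 55005985 to 55021385), was at 93.0, 59.3 and 42.3 CPM against 36.8 and 48.2 CPM. The groups overlapped, and 30 °C replicate 1 held the highest level. The log2 fold change of *Hk3*, -0.61 (SE 0.35), was the largest in size of the 3 and had the widest error. It was -0.26 without 30 °C replicate 1 and -0.84 without 30 °C replicate 3.

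All 3 hexokinase genes had lower means at 4 °C, and their shares overlapped between the groups. *Hk1* made up 47.6%, 51.8% and 57.9% of hexokinase by counts per exon base at 30 °C and 55.9% and 52.3% at 4 °C, with overlap. The difference of the means was 1.71 percentage points, and leaving out single libraries gave -0.72 to 4.47. The lower level of *Hk1* at 4 °C was thus not accompanied by a lower share, unlike the levels and shares of *Pklr* and *Pfkm*. This contrast between the families was not tested.

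**Figure D2:**
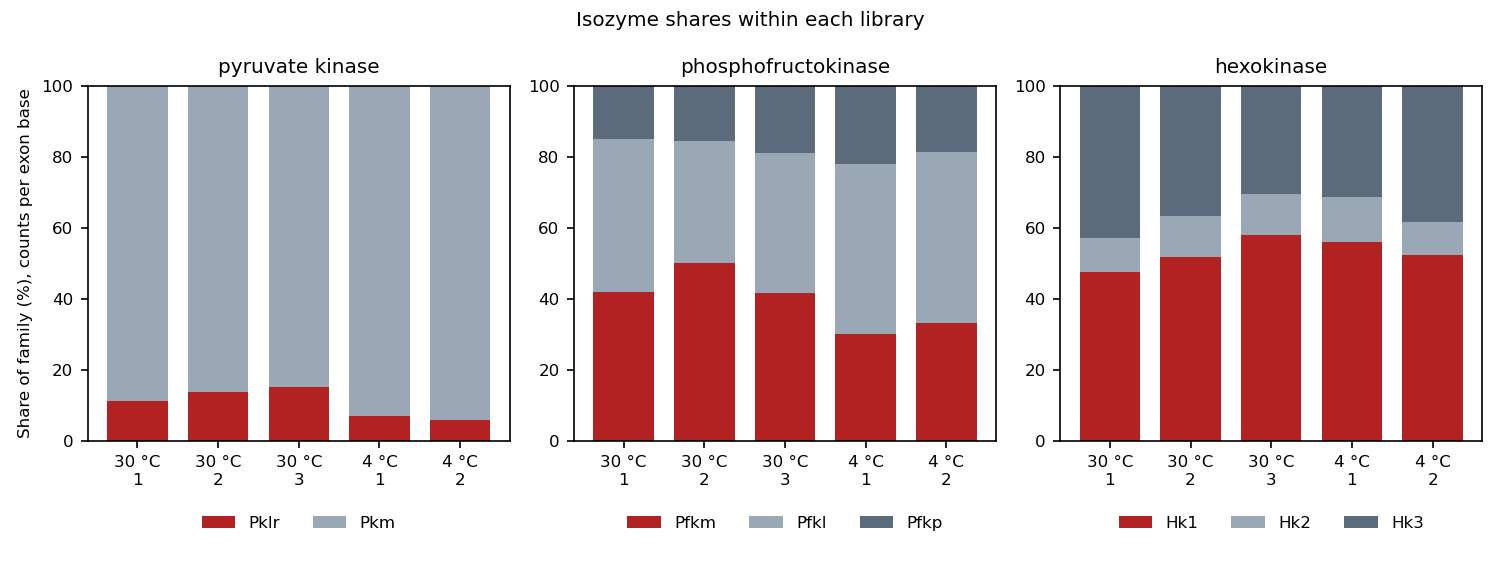
For each library, the bars give the share in percent of pyruvate kinase, phosphofructokinase and hexokinase counts that each isozyme gene took, with counts divided by exon length. *Pklr* takes 11.3% to 15.1% in the warm libraries and 5.82% and 7.11% in the cold ones, *Pfkm* takes 41.5% to 50.1% and then 30.2% and 33.1%, and *Hk1* overlaps between the groups.

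*Bpgm* (chromosome 6, 34476207 to 34505613) was at 364, 608 and 208 CPM at 30 °C and at 513 and 415 CPM at 4 °C. The lowest and the highest library were both warm, and the cold libraries lay between them. The log2 fold change was 0.24 (SE 0.43). Without 30 °C replicate 2, the library rich in acinar transcripts, it was 0.68, and without 30 °C replicate 3 it was -0.07, so single libraries decided its size and sign. *Pgam1*, the phosphoglycerate mutase of most tissues (chromosome 19, 41911923 to 41918660), was at 153, 87.6 and 85.0 CPM against 84.8 and 113 CPM, with overlap. A pseudogene identical to *Pgam1* over 765 bases, *Pgam1-ps2*, carried 0.665% as many counts.

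*Pklr* and *Bpgm*, both made in erythroid cells, did not vary together. The log2 CPM of *Pklr* minus that of *Bpgm* was -2.35, -3.35 and -1.77 at 30 °C and -4.05 and -3.76 at 4 °C, without overlap. Both genes are of a set chosen by the temperature contrast, so nothing is read from this lack of overlap. *Bpgm* kept a narrower distance to the globin genes. Its log2 CPM minus the mean of *Hbb-bs*, *Hbb-bt*, *Hba-a1* and *Hba-a2* was -3.56, -3.44 and -3.38 at 30 °C and -3.51 and -3.83 at 4 °C, with overlap. The sum of the globin genes and *Bpgm* were both lowest in 30 °C replicate 3.

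Likeness of profiles was measured as the root mean square (RMS) difference between log2 CPM of 2 genes after each was centred on its mean over the 5 libraries. By this measure *Bpgm* lay at 0.16 from the mean of the globin list, rank 5 of 16133 genes. Ranks 1 and 2 were *Hbb-bs* and *Hbb-bt*, themselves on the list. Ranks 3 and 4 were *Gm43587* and *Asap3*, which are not on it, and *Hba-a1*, which is, came at rank 6. Nearness to this list was thus not limited to globin genes. From the mean of the erythroblast list, *Pfkm* lay at 0.21 (rank 316), *Hk2* at 0.25 (rank 638), *Hk1* at 0.27 (rank 850), *Hk3* at 0.28 (rank 892) and *Pklr* at 0.33 (rank 1680). *Bpgm* was the member farthest from the erythroblast list, at 0.57 (rank 9535). All 3 of *Pfkm*, *Hk1* and *Pklr* were nearer to the proliferation list, at 0.09 (rank 40), 0.22 (rank 718) and 0.29 (rank 1569). By rank, *Pklr* also came nearer to the neutrophil list (rank 1033), although at a wider RMS difference of 0.65. *Hk3* had rank 236 for the neutrophil list and *Pfkl* rank 1163 for the macrophage list. The points share 5 libraries in 2 groups, and a gene and a list that differ between the groups in the same direction come near each other, so these ranks are descriptions.

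**Figure D3:**
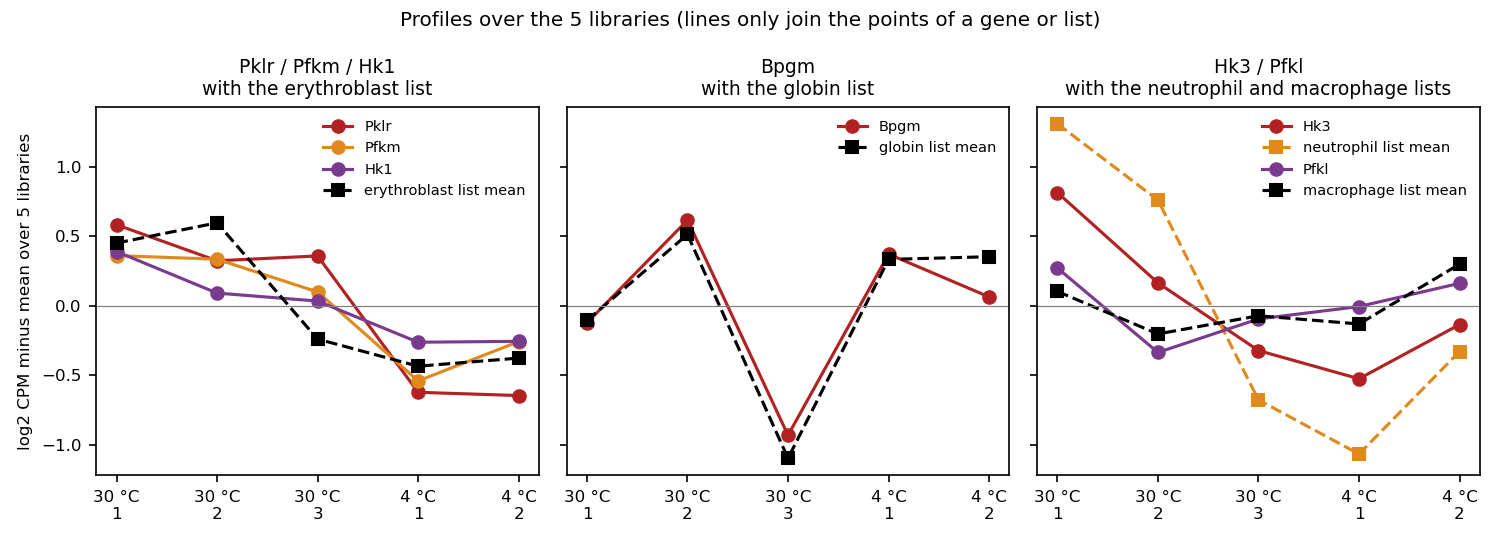
Log2 CPM minus the mean over the 5 libraries is plotted for members (circles, solid lines) and for means of marker lists (squares, dashed lines). *Bpgm* follows the globin list, with an RMS difference of 0.16 and the lowest point of both in 30 °C replicate 3, whereas *Pklr*, *Pfkm* and *Hk1* lie above their mean in the warm libraries and below it in the cold ones.

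The tested genes nearest to *Pklr* were *Wdr31* (RMS 0.07), *Ampd3* (0.10), *Icam5* (0.12), *Gm10179* (0.13) and *Bcl2l15* (0.13). Only *Ampd3*, an AMP deaminase known from red cells, was abundant, at 64.5, 59.1 and 58.8 CPM at 30 °C and 33.3 CPM in both libraries at 4 °C. The likeness of *Ampd3* to *Pklr* follows from how it was picked, by the nearness of its profile. The genes nearest to *Bpgm* were *Mterf1b* (0.11), *Fap* (0.12), *Thrsp* (0.15), *Alas2* (0.15) and *Asap3* (0.16). *Alas2*, the first enzyme of haem synthesis in erythroid cells, was at 1057, 1511 and 496 CPM at 30 °C and at 1100 and 954 CPM at 4 °C. The other neighbours of both genes were at 3.12 CPM or less. All neighbours were picked for their nearness, so their likeness to *Pklr* or *Bpgm* is not a result.

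Markers of erythroblasts, the nucleated precursors of red cells, were also lower in the cold libraries. Of the 11 analysed, 10 had lower and 1, *Alas2*, higher fitted levels at 4 °C, with a median log2 fold change of -0.74, 5 without overlap (background 23.3%) and none past an adjusted p of 0.05 by edgeR. *Slc4a1*, the anion exchanger of the red-cell membrane and the most abundant of them, was at 1935, 2297 and 1258 CPM against 1151 and 1042 CPM (log2 fold change -0.74, edgeR adjusted p = 0.71). The 4 globin genes had higher fitted levels at 4 °C, with a median of 0.53 and overlap in all 4, again with none past the threshold. On the log2 scale, *Pklr* relative to the mean of the erythroblast genes differed by -0.38 between the groups, *Pfkm* by 0.01 and *Hk1* by 0.24, each with overlap. *Hk2* differed by 0.21 and *Hk3* by 0.13, also with overlap. *Bpgm* differed by 1.04, *Pfkl* and *Pfkp* by 0.80, *Pkm* by 0.78 and *Pgam1* by 0.58, each without overlap. The mean of the erythroblast list itself differed by -0.67, so a gene unchanged between the groups would rise by as much on this measure. How many of all genes were without overlap on it was not counted. Whether the number of erythroid cells set the lower levels of *Pklr*, *Pfkm* and *Hk1* was not tested.

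With the erythroblast level as the scale between libraries in place of TMM, the median log2 fold change of all genes shifted to 0.63. On that scale *Pklr* was at -0.43 and *Pfkm* at -0.01, and *Hk1*, *Hk2*, *Hk3* and *Pgam1* changed sign to 0.21, 0.20, 0.10 and 0.54. All members except *Pklr* and *Pfkm* were therefore above 0 on it, and *Pklr*, *Pfkm*, *Hk1*, *Hk2*, *Hk3* and *Pgam1* lay below the shift of all genes. *Bpgm*, at 1.01, *Pkm*, *Pfkl* and *Pfkp* lay above it.

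**Figure D4:**
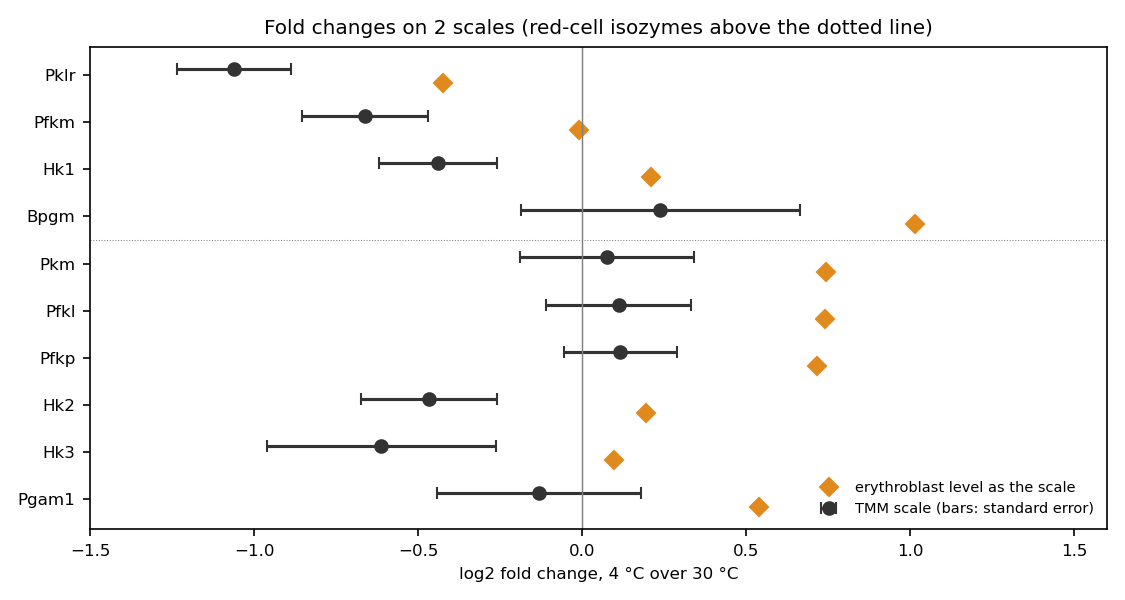
Log2 fold changes, 4 °C over 30 °C, of the 10 genes are plotted on the TMM scale (circles, bars give the standard error) and with the erythroblast level as the scale (diamonds). *Pklr* stands at -1.06 and -0.43 and *Pfkm* at -0.66 and -0.01, whereas *Hk1* moves from -0.44 to 0.21.

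Levels can be compared between genes only per length. In CPM per kilobase of exon, *Pkm* (132 ± 36.2, SD, n = 3) and *Bpgm* (110 ± 56.1) led at 30 °C, followed by *Pgam1* (54.7 ± 19.3), *Hk1* (24.2 ± 3.31), *Pklr* (19.8 ± 1.98), *Hk3* (17.6 ± 7.01), *Pfkm* (12.6 ± 1.22), *Pfkl* (11.2 ± 2.40), *Hk2* (5.02 ± 0.604) and *Pfkp* (4.67 ± 0.497). In that order, neighbours overlapped in their libraries except *Pgam1* with *Hk1* and *Pfkl* with *Hk2*. At 4 °C, *Pklr* came 7th in place of 5th, at 9.48 ± 0.109 CPM per kilobase (SD, n = 2). *Hk3* (11.5 ± 2.19) and *Pfkl* (12.1 ± 0.987) then stood above it, and in both libraries their levels exceeded those of *Pklr*. At 4 °C only *Pkm* with *Bpgm* and *Pfkl* with *Hk3* overlapped among neighbours in the order. With the longest transcript as the length, *Pklr* came 5th at 30 °C and 8th at 4 °C, and *Pfkm* came 9th at both.

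The other genes of these steps were read from a list of 18, of which 13 passed the filter. None passed an adjusted p of 0.05 by edgeR or DESeq2, 6 had higher and 7 lower fitted levels at 4 °C, and the median log2 fold change was -0.03. By unadjusted p under 0.05 in edgeR, 2 of 13 were lower, *Minpp1* and *Pfkfb4*, beside 4.17% of all genes, and 0 were higher, beside 2.58%. The 5 most abundant were *Gpi1*, which turns glucose phosphate into fructose phosphate, *Aldoa* and *Tpi1*, which split the sugar and interconvert the products, *Adpgk*, which phosphorylates glucose with ADP, and *Minpp1*, a phosphatase that can also remove phosphate from 2,3-bisphosphoglycerate. *Gpi1* was at 425.5 ± 90.8 CPM (SD) over the warm and 416 ± 47.0 CPM over the cold libraries. *Aldoa* was at 408 ± 137 and 456 ± 112 CPM, and *Tpi1* at 215 ± 61.0 and 220.5 ± 48.7 CPM. These 3 differed by less than their spread. *Adpgk* was at 151, 103 and 72.7 CPM against 64.7 and 64.0 CPM (log2 fold change -0.76, edgeR adjusted p = 0.74), without overlap. *Minpp1* was at 146, 141 and 121 CPM against 86.2 and 103 CPM (log2 fold change -0.52, edgeR adjusted p = 0.71), without overlap. *Pfkfb4*, whose enzyme sets the level of an activator of phosphofructokinase and which is named after its values were seen, was at 32.4, 27.0 and 23.0 CPM against 17.7 and 18.0 CPM (log2 fold change -0.62, edgeR adjusted p = 0.70), also without overlap. *Hkdc1*, a hexokinase-like gene, had 31 counts in 30 °C replicate 2, the library richest in acinar transcripts, with islet genes at 89.9 CPM in sum. It had 0 or 1 counts elsewhere.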

How the data were processed

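RNA of 5 tumour samples, 3 at 30 °C and 2 at 4 °C, was analysed. The authors deposited raw counts per gene, in whole numbers. The study's methods name featureCounts on Gencode vM19, and the submitters' processing notes name fastp, HISAT, RSEM and GRCm38, with no role. Which tool made the table, and its strand and multi-mapping settings, are not given in the sources used here. Entries with no symbol (0.0101% to 0.017% of counts) were left out. Where entries shared a symbol (97 symbols), the one with most counts on average stood for it. Low counts were removed with filterByExpr, TMM scaling applied, and groups compared by the robust quasi-likelihood test of edgeR 4.0.16 in R 4.3.3, with no covariate and Benjamini-Hochberg adjustment. DESeq2 1.42.0, the study's test, was an alternative. The standard error (SE) of a log2 fold change was its size divided by the square root of the F statistic of the edgeR test. For the 10 genes it is given as a description only. Log2 CPM took a prior count of 2. The script was tested on simulated data. Lengths, coordinates and overlaps come from GENCODE M21 on GRCm38, and promoters from RefSeq. Members and lists were chosen with earlier results of these data known. Named were all 10 members, the 5 most abundant genes of the list of other glycolytic genes, the 5 profiles nearest to *Pklr* and to *Bpgm*, the most abundant or absent genes of marker lists, and genes a result turned on. Alternatives were other scalings, filters and tests, single libraries left out, gene lengths and a replicate block.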

Additional observations from a re-analysis of the deposited data

How the results depend on the processing

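The count of 0 genes called became 118 with DESeq2, 8 with total counts only as the scale, 5 with the erythroblast level as the scale, 1090 with unadjusted p under 0.05 and 3752 with groups that do not overlap. It was 0 without any 1 library. With the replicate block it was 44. Labels tie no numbers to a litter or batch, so the numbers were not taken to pair samples. Same-numbered samples deviated from their group means with r of -0.255 and 0.259. The deviations of the 2 libraries at 4 °C are exact opposites, so these values cannot settle whether the numbers pair samples. On the erythroblast scale the median log2 fold change of the red-cell isozymes was 0.10 and that of the others 0.63. The share difference of *Pklr* was -4.82 points with counts not divided by length and -4.13 with the longest transcript. The cause was not tested. For *Pklr*, *Pfkm* and *Pfkp*, none of 15 alternatives changed the sign, although *Pfkm* came to -0.01 on the erythroblast scale. *Hk1*, *Hk2* and *Hk3* changed sign on that scale only. The median of the 6 others changed sign in 5 of 15. *Bpgm* changed sign with the replicate block and without 30 °C replicate 3, *Pkm* in 4 of 15 alternatives, *Pfkl* without 30 °C replicate 2, and *Pgam1* in 3 of 15. The list of other glycolytic genes kept 0 calls in 15 alternatives, chosen for it after seeing the data. With 2 libraries at 4 °C, the spread of that group is poorly known.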

Other observations

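Marker lists of other cell types were read beside the isozymes. Neutrophil genes were lower at 4 °C in fitted level for 12 of 12, with sums of 12938, 8714 and 2995 CPM at 30 °C and 2528 and 4083 CPM at 4 °C and a median log2 fold change of -1.36. The highest library was again 30 °C replicate 1, as for *Hk3*. The 2 most abundant were *S100a9* and *Ngp*. Proliferation genes, led by *Mki67* and *Top2a*, were lower for 7 of 7 (median -0.55). B-cell genes, led by *Ighm* and *Cd79a*, were higher for 11 of 11 (median 0.70), and T-cell genes, led by *Lck* and *Cd4*, for 8 of 8 (median 0.92). Macrophage genes, led by *Lyz2* and *Csf1r*, were higher for 7 of 9 (median 0.22), and platelet and megakaryocyte genes, led by *Ppbp* and *Itga2b*, lower for 6 of 9 (median -0.05). No gene of these lists passed an adjusted p of 0.05 by edgeR. By DESeq2, 4 of 8 T-cell, 3 of 11 erythroblast and 2 of 7 proliferation genes did. Among all 11697 genes with an adjusted p by DESeq2, 118 did, of which 92 (0.787% of the 11697) were lower and 26 higher at 4 °C. By unadjusted p under 0.05 in edgeR, 3 of 12 neutrophil, 5 of 11 erythroblast and 3 of 7 proliferation genes were lower, beside 4.17% of all genes. In the other direction, 4 of 11 B-cell and 6 of 8 T-cell genes were higher, beside 2.58%.

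Skeletal muscle genes summed to 9.75 to 16.4 CPM per library, and *Myh4* had 0 counts in all 5. *Mylpf* and *Tnni2* were the most abundant of them. The sum was 9.75 CPM in 4 °C replicate 1 and 16.4 CPM in 4 °C replicate 2, the lowest and the highest, and the warm libraries lay between.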
